A study of Mus musculus with 6 samples.

Results

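Adhesion G protein-coupled receptors (GPCRs) are the receptor family whose mouse symbols begin with Adgr. Members were the probe sets of the deposited value table whose only annotated gene symbol was Adgr followed by a subfamily letter from A to G, L or V and a digit. There were 33 such probe sets for 26 genes, among 34760 probe sets and 19937 genes. All 26 genes matched a RefSeq entry of the same symbol, 25 as protein-coding genes and Adgrd2-ps as a pseudogene. The brightest probe set stood for a gene, which mattered only for Adgrl2, the 1 member with several. Adgrf3 and Adgrg5 were not analysed here.

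RNA of mouse embryonic stem cells was hybridised to 6 arrays, 3 of Trim71 knockdown cells and 3 of control cells. For the knockdown, 3 siRNAs against Trim71 were transfected together by means of a lipid carrier, and RNA was taken after 72 h. The protocol names a non-targeting siRNA as the control, while the control arrays carry only the genotype wild-type, so whether those cells were transfected is unclear from the labels. The knockdown is therefore transient and partial, and no strain, clone or separate culture is named.

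A receptor of this family joins a long extracellular part, built from adhesion modules, to the transmembrane helices that all GPCRs share. Next to the first helix lies a domain in which many members cut themselves, and the short stretch behind the cut can act as a tethered agonist. Ligands are often matrix or cell-surface proteins, and the receptors signal through heterotrimeric G proteins, for some members to cyclic AMP. Trim71, which binds RNA and can attach ubiquitin to proteins, acts in stem cells and early embryos.

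Trim71 itself was at 34.9% of the control level (95% confidence interval 32.4 to 37.5%). Embryonic stem cell markers were bright. The mean log2 signal of 8 of them was 11.18 to 11.25 on knockdown arrays and 11.04 to 11.09 on control arrays. Of the 8, Zfp42 (0.25) and Klf4 (0.36) rose in limma, where 5.53% of all genes were called. An unadjusted p under 0.05 in limma was found for 5 of the 8, beside 19.0% of all genes. Of 19937 genes, 675 were called higher and 428 lower, at an adjusted p under 0.05 in limma with Benjamini-Hochberg adjustment. Knockdown array 3 deviated most from its group mean, by a root mean square of 0.11 log2 units, against 0.07 to 0.09 for the other 5 arrays. With 3 against 3 arrays the smallest p of an exact two-sided permutation test is 0.1, and each of the 5 called members had that value. In RNA from whole cultures, fewer cells that carry a transcript and less of it per cell cannot be told apart.

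After the knockdown 4 adhesion GPCR genes rose and 1 fell of 26. Adgrg6 rose 2.01-fold, Adgrg1 1.53-fold, Adgrb1 1.38-fold and Adgrl1 1.23-fold, while Adgrl2 fell to 78.9% of the control level. That is 19.2% of the members called, beside 5.53% of all genes (3.39% higher and 2.15% lower). The median log2 fold change was 0.02 over the members and 0.005 over all genes, and 16 members lay above 0 and 10 below. The groups did not overlap for 10 members, 6 with knockdown above and 4 with knockdown below, which is 38.5% of them beside 25.5% of all genes (14.7% above and 10.8% below). An unadjusted p under 0.05 in limma was found for 11 of the 26, beside 19.0% of all genes. The other 21 members had log2 fold changes from −0.23 to 0.26.

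**Figure D1:**
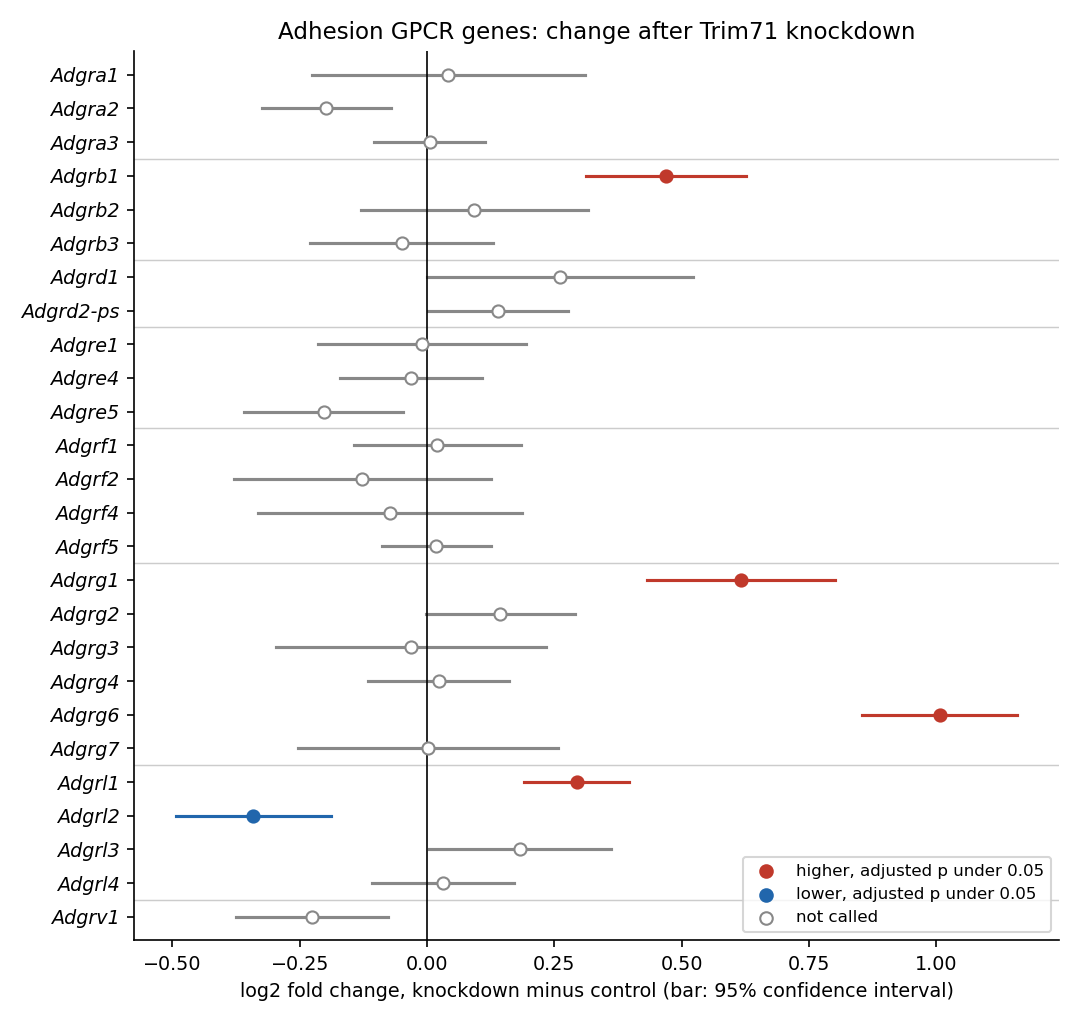
Log2 fold change of each of the 26 genes, knockdown minus control, with its unadjusted 95% confidence interval from limma; grey lines part the subfamilies. Filled points are the 4 genes called higher and the 1 called lower, and Adgrg6 stands farthest from 0 at 1.01.

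The 26 genes ranged widely in signal. An array signal depends on the probes as well as on the transcript, so the levels below place a probe set among others and do not measure amounts. As a yardstick of dim signal, 1027 olfactory receptor genes, which are mostly silent outside the nose, had a median log2 signal of 3.69 and a 95th percentile of 5.38. Of the members, 15 lay above that 95th percentile and 11 did not, and 2 of those 11 lay under the olfactory median. All 5 called members were among the 15. Of all genes above that line 7.66% were called. Among the 11 dim members 0 were called, and 0 had an unadjusted p under 0.05 in limma, but a change of a dim transcript is compressed on this scale.

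**Figure D2:**
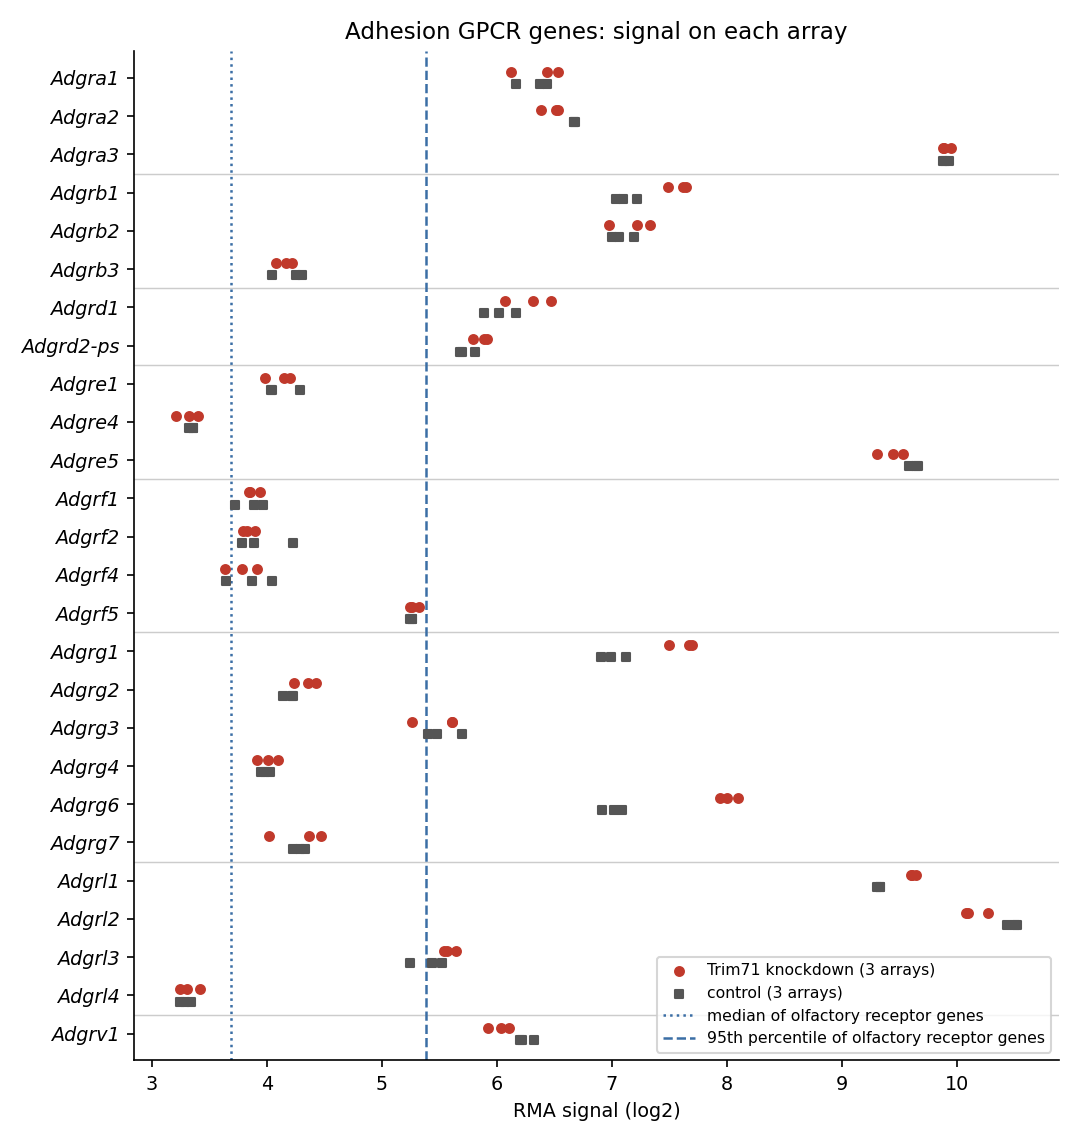
Log2 RMA signal of the 26 genes on every array, knockdown as red circles above control as grey squares; the blue lines mark the median (dotted) and 95th percentile (dashed) of olfactory receptor genes. Adgrl2, Adgra3, Adgre5 and Adgrl1 lie at the bright end, and most genes of subfamilies E and F lie left of the dashed line.

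Subfamily G held the largest changes. Adgrg6, or Gpr126, is a receptor that Schwann cells need to form myelin and that raises cyclic AMP. It read 8.01, 7.94 and 8.10 on the knockdown arrays, against 7.02, 6.92 and 7.09 on the control arrays. The lowest knockdown array lay 0.85 log2 units above the highest control array. The log2 fold change was 1.01 ± 0.066 (SE), with an adjusted p of 0.00118 in limma.

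Adgrg1, or Gpr56, binds collagen III and is known from the developing cortex, where its loss disturbs neuronal positioning. It read 7.70, 7.49 and 7.67 in knockdown cells, against 6.99, 6.90 and 7.13 in control cells. All knockdown arrays lay above all control arrays, by 0.37 at the nearest. The log2 fold change was 0.62 ± 0.079 (SE), with an adjusted p of 0.00759 in limma. The calls of Adgrg6 and Adgrg1 were the 2 that held under every alternative tried.

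The other 4 measured genes of subfamily G were not called, at log2 fold changes from −0.03 to 0.14. Adgrg3, which is found in granulocytes, was the brightest of these and averaged 5.50 ± 0.20 in knockdown and 5.53 ± 0.16 in control cells (SD, n = 3 each). Adgrg2, a receptor of the male reproductive ducts, had the largest change of these. It read 4.23, 4.43 and 4.36 in knockdown cells and 4.14, 4.23 and 4.22 in control cells, with an adjusted p of 0.272 in limma. Its groups did not overlap, by a margin of 0.003 log2 units, and both were dim. Adgrg4 and Adgrg7 were dim as well, at 4.01 and 4.29 in knockdown cells and 3.99 and 4.28 in control cells.

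In RefSeq, Adgrg1 lies between Adgrg5 and Adgrg3. Adgrg3, on one side of Adgrg1, had a log2 fold change of −0.03 ± 0.11 (SE). Adgrg6 lies between Hivep2 and Vta1, which had log2 fold changes of 0.53 (adjusted p = 0.0531 in limma) and 0.02. These neighbours were looked up after the values were seen.

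**Figure D3:**
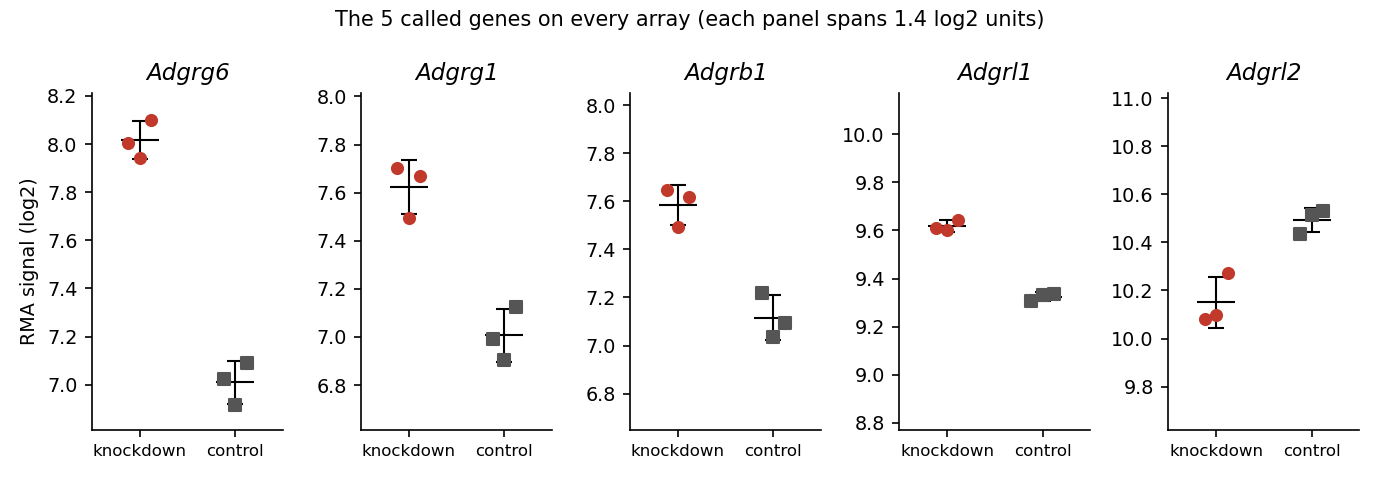
Log2 RMA signal of the 5 called genes on each array, knockdown left and control right, with the mean and SD of 3 arrays as black marks; all panels span the same range. The groups are apart in every panel, by the widest margin for Adgrg6, and knockdown array 3 is the highest knockdown value of Adgrl2.

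Subfamily B consists of the brain-specific angiogenesis inhibitors, and 1 of its 3 genes rose. Adgrb1, or Bai1, recognises phosphatidylserine on dying cells and passes the signal to engulfment proteins, and it also acts at synapses. It read 7.65, 7.49 and 7.62 in knockdown cells, against 7.22, 7.04 and 7.09 in control cells. The 2 sets of arrays were 0.27 log2 units apart at the nearest. The log2 fold change was 0.47 ± 0.067 (SE), with an adjusted p of 0.0108 in limma. That p was 0.0533 without control array 2 and 0.0507 without control array 3.

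Adgrb2 read 7.33, 7.22 and 6.98 in knockdown cells and 7.00, 7.06 and 7.19 in control cells, so its groups overlapped. Adgrb3, which binds C1q-like proteins at synapses, was dim and averaged 4.15 ± 0.067 in knockdown and 4.20 ± 0.14 in control cells (SD, n = 3 each). Neither was called, at adjusted p-values of 0.693 and 0.808 in limma.

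Subfamily L holds the latrophilins, receptors of teneurins and FLRT proteins at synapses, and its 2 bright genes went opposite ways. Adgrl1, also a receptor of the spider toxin latrotoxin, read 9.61, 9.60 and 9.64 in knockdown cells, against 9.31, 9.33 and 9.34 in control cells. Its arrays varied little, with an SD of 0.023 in knockdown and 0.017 in control cells. The log2 fold change was 0.29 ± 0.045 (SE), with an adjusted p of 0.0131 in limma. The p was 0.0773, 0.0697 or 0.0552 without control array 1, 2 or 3, and 0.053 without knockdown array 2.

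Adgrl2 read 10.08, 10.10 and 10.27 in knockdown cells, against 10.44, 10.51 and 10.53 in control cells. Knockdown array 3 lay nearest to the control arrays, 0.16 log2 units under the lowest. The log2 fold change was −0.34 ± 0.065 (SE), with an adjusted p of 0.0275 in limma. The call was lost without any of the other 5 arrays, where the p was 0.0759 to 0.113, and kept at 0.0116 without knockdown array 3.

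Adgrl2 had 8 probe sets, which are not replicates, since they measure the same arrays and gene. All 8 averaged lower in knockdown cells, with log2 fold changes from −0.40 to −0.03 and a median of −0.33. The groups did not overlap in 5, each with knockdown below, beside 10.8% of all genes. Knockdown array 3 was the highest knockdown array in all 8. When all 34760 probe sets of the table were tested, 0 of the 8 were called in limma (1.15% of all probe sets were). Their lowest adjusted p was 0.0741. An unadjusted p under 0.05 in limma was found for 6 of the 8, beside 19.0% of all genes in the main fit. The mean of the 8 had a log2 fold change of −0.30 (adjusted p = 0.0984 in limma). The other 4 called members stayed called in that wider test.

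**Figure D4:**
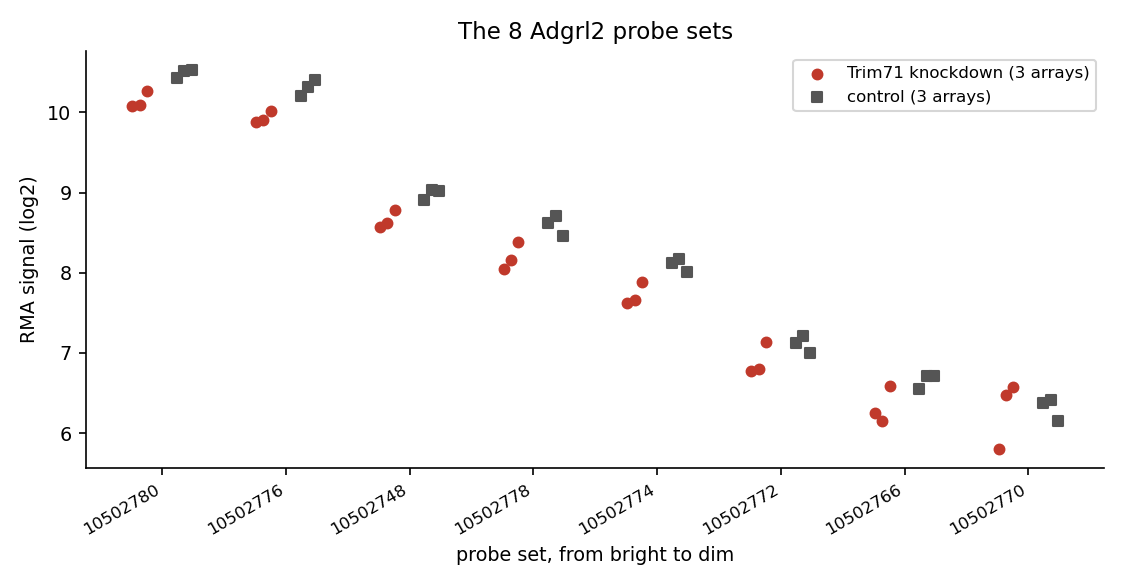
Log2 RMA signal of the 8 Adgrl2 probe sets on each array, ordered from bright to dim, with knockdown arrays 1 to 3 (red, left) and control arrays 1 to 3 (grey, right) of each probe set. The knockdown arrays lie under the control arrays in 5 probe sets and overlap with them in 3, and knockdown array 3 is the highest red point each time.

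Adgrl3 read 5.57, 5.54 and 5.65 in knockdown cells, against 5.52, 5.44 and 5.25 in control cells. Its groups were only 0.015 log2 units apart, and it was not called (0.18, adjusted p = 0.25 in limma). Adgrl4, an endothelial receptor, was the dimmest member, at 3.32 ± 0.089 in knockdown and 3.29 ± 0.045 in control cells (SD, n = 3 each). In RefSeq it lies next to Adgrl2, and it had a log2 fold change of 0.03.

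Promoter windows from RefSeq (build GRCm38.p6, 250 bases before to 50 after an annotated start) were available for 19 of the 26 genes and for 4 of the 5 called ones. They are shown for Adgrg6, the member that rose most, and for Adgrl1 and Adgrl2, the latrophilins that went opposite ways. The arrays measured transcripts and not these regions. Capitals mark the letters GGGCGG, known as the GC box core, and TATAAA, on either strand. In these windows GGGCGG occurred at 2 places each in Adgrg6 and Adgrl1 and TATAAA at 1 place in Adgrl2. Of 32851 windows of this length, 35.7% held GGGCGG, 19.5% held it at 2 or more places, and 13.6% held TATAAA. The GC content was 69.0% for Adgrg6, 70.0% for Adgrl1 and 38.0% for Adgrl2, beside a median of 52.7%. In the Adgrl2 window the 50 bases after the annotated start begin with ATG, the letters of a start codon. That window may therefore lie within the gene and not at its promoter. Its GC content and TATAAA are then not comparable with those of the other windows. A pair of windows for Adgrg1 held neither motif, at 60.7% GC each. The 3 windows follow, 5′ to 3′ on the gene's strand.
Adgrg6 (chr10:14544987-14545286, minus strand): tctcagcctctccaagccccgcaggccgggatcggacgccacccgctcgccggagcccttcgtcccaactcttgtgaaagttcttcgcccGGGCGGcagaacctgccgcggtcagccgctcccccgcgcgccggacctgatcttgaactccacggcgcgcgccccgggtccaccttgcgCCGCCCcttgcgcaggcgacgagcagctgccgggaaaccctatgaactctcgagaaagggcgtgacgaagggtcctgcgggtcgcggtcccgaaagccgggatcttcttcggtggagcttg
Adgrl1 (chr8:83899848-83900147, plus strand): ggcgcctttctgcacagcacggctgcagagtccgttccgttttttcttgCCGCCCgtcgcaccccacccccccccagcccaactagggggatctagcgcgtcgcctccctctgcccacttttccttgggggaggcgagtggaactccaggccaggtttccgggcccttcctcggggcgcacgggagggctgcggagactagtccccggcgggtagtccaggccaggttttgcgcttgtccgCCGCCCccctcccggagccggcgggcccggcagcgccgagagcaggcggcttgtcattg
Adgrl2 (chr3:148954586-148954885, minus strand): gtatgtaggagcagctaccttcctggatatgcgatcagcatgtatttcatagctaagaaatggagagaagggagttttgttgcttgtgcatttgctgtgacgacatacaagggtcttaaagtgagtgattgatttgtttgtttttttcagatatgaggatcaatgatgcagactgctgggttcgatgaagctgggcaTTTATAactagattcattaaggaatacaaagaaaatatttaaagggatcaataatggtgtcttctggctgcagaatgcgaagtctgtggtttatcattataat

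In subfamily A, 0 of 3 genes were called in limma and 1 had an unadjusted p under 0.05 (19.0% of all genes). Adgra2, or Gpr124, is the partner of Reck in sensing Wnt7 proteins in brain vessels. It read 6.39, 6.53 and 6.52 in knockdown cells, against 6.68, 6.67 and 6.67 in control cells. All knockdown arrays lay under all control arrays, at a log2 fold change of −0.20 ± 0.054 (SE; adjusted p = 0.0885 in limma). With scaling repeated by quantiles or by array medians, the p was 0.0314 or 0.0404. Adgra3, or Gpr125, was the brightest of the 3, at 9.91 ± 0.037 in knockdown and 9.90 ± 0.027 in control cells (SD, n = 3 each). The 95% confidence interval of its log2 fold change ran from −0.10 to 0.11. Adgra1 averaged 6.37 in knockdown and 6.32 in control cells, and its groups overlapped.

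The remaining subfamilies D, E, F and V had 0 genes called of 10, with 4 at an unadjusted p under 0.05 in limma (19.0% of all genes). Adgrv1, a very large receptor of the stereocilia of hair cells, read 5.93, 6.03 and 6.11 in knockdown cells, against 6.22, 6.33 and 6.20 in control cells. Its groups were 0.092 log2 units apart, and the log2 fold change was −0.23 ± 0.064 (SE) with an adjusted p of 0.0983 in limma. Adgrd1, or Gpr133, read 6.48, 6.31 and 6.07 in knockdown cells and 6.02, 5.89 and 6.17 in control cells. Its groups overlapped, with a log2 fold change of 0.26 (adjusted p = 0.261 in limma). The pseudogene Adgrd2-ps averaged 5.87 in knockdown and 5.73 in control cells.

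Adgre5, or CD97, a receptor of leukocytes and many other cells that binds CD55, was the 1 bright gene of subfamily E. It read 9.31, 9.45 and 9.53 in knockdown cells, against 9.67, 9.65 and 9.58 in control cells. The groups were 0.05 log2 units apart, and the log2 fold change of −0.20 ± 0.067 (SE) was not called (adjusted p = 0.146 in limma). Adgre5 lies next to Adgrl1 in RefSeq, which rose. Adgre1, the macrophage marker F4/80, averaged 4.11 and 4.12, and Adgre4 averaged 3.31 and 3.34 in knockdown and control cells. Beside them, 6 of 8 leukocyte markers lay at or under the olfactory 95th percentile. Cd68, a lysosomal protein on that list, was bright and rose by 0.27 (adjusted p = 0.043 in limma), while Ptprc (0.04) and Csf1r (−0.10) were not called. Of the 8, 1 was called (5.53% of all genes) and 2 had an unadjusted p under 0.05 in limma (19.0% of all genes). The mean of the 8 markers was 5.29 to 5.40 on knockdown and 5.27 to 5.36 on control arrays, and their part in the values of subfamily E was not tested.

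Subfamily F was dim throughout. Its 4 genes averaged from 3.78 to 5.28 in knockdown cells and from 3.85 to 5.26 in control cells, and 0 were above the olfactory 95th percentile. Adgrf5, known from lung alveolar cells and endothelium, was the brightest. Adgrf2 had the largest log2 fold change, −0.13, with overlapping groups and 1 high control array at 4.23. Adgrf1 and Adgrf4 had log2 fold changes of 0.02 and −0.07, with adjusted p-values of 0.925 and 0.807 in limma.

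The Celsr genes, which belong to this family as subfamily C but keep their own symbols, act in planar cell polarity. Of the 3, 0 were called in limma and 0 had an unadjusted p under 0.05. Celsr1 averaged 7.72 in knockdown and 7.67 in control cells, and Celsr3 had the largest change at −0.14 (adjusted p = 0.514 in limma). Among 11 Frizzled and Smoothened genes, another receptor family with a large extracellular part, 1 rose (3.39% of all genes did). This was Fzd7, a Wnt receptor, at 0.23 (adjusted p = 0.0382 in limma), and it was called in 0 of the 6 fits with an array left out. Of the 11, 3 had an unadjusted p under 0.05 in limma, beside 19.0% of all genes. Besides Fzd7 these were Fzd3 (−0.20) and Smo (−0.17), both lower and not called.

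Ligands reported for these receptors were measured for 31 of 32 listed genes, and 2 rose and 1 fell, beside 5.53% of all genes called. Wnt7b, a ligand of the Adgra2 and Reck complex, read 7.52, 7.48 and 7.79 in knockdown cells, against 6.99, 7.00 and 6.79 in control cells. It rose by 0.67 ± 0.096 on the log2 scale (SE, adjusted p = 0.011 in limma) and was called with any array left out. Reck, a membrane-anchored protease inhibitor of the same complex, read 7.81, 7.77 and 7.87 in knockdown cells, against 8.01, 8.04 and 8.07 in control cells. It fell by 0.22 (adjusted p = 0.0426 in limma), a call kept in 1 of 6 fits with an array left out. Wnt7a had a log2 fold change of −0.09 and was not called.

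Plxdc2, reported as a binding partner of human ADGRD1, read 8.97, 8.98 and 9.00 in knockdown cells, against 8.49, 8.55 and 8.57 in control cells. It rose by 0.45 ± 0.047 on the log2 scale (SE, adjusted p = 0.00383 in limma) and was called with any array left out. Of the reported ligands of Adgrg1 and Adgrg6, 0 of 6 were called in limma, and 0 had an unadjusted p under 0.05. Col4a1, a collagen IV chain, had the largest statistic of these at −0.08. The prion protein gene Prnp, a ligand of Adgrg6, had a log2 fold change of −0.04 ± 0.11 (SE). Teneurin, FLRT and neurexin genes, ligands of the latrophilins, were called for 0 of 9 in limma. Of these 9, 2 had an unadjusted p under 0.05 in limma, beside 19.0% of all genes. Flrt3 came nearest at −0.27 (adjusted p = 0.0916). Of 7 ligand genes of subfamily B, 0 were called and 0 had an unadjusted p under 0.05, and Rtn4r came nearest at 0.08. Cd55, the ligand of Adgre5, was at −0.23 (adjusted p = 0.136 in limma).

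Downstream of the receptors, of 12 measured G protein alpha subunit genes 0 were called in limma (5.53% of all genes). An unadjusted p under 0.05 in limma was found for 5 of them (19.0% of all genes). Gna11, at 0.21 (adjusted p = 0.0508 in limma), came nearest to the threshold. The rest of these 5 were lower, Gnai1 at −0.25, Gnai2 at −0.14, Gnao1 at −0.29 and Gnaq at −0.17. The median of the list was −0.06. Of 19 cyclic AMP genes, 2 fell (2.15% of all genes did), the adenylyl cyclase gene Adcy9 at −0.23 and the phosphodiesterase gene Pde4d at −0.27, whose products make and degrade cyclic AMP. With an array left out, Adcy9 was called in 0 of 6 fits and Pde4d in 1. An unadjusted p under 0.05 in limma was found for 6 of the 19 (19.0% of all genes). Of these only Adcy6, at 0.20, was higher. The median of the cyclic AMP list was −0.05.

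**Figure D5:**
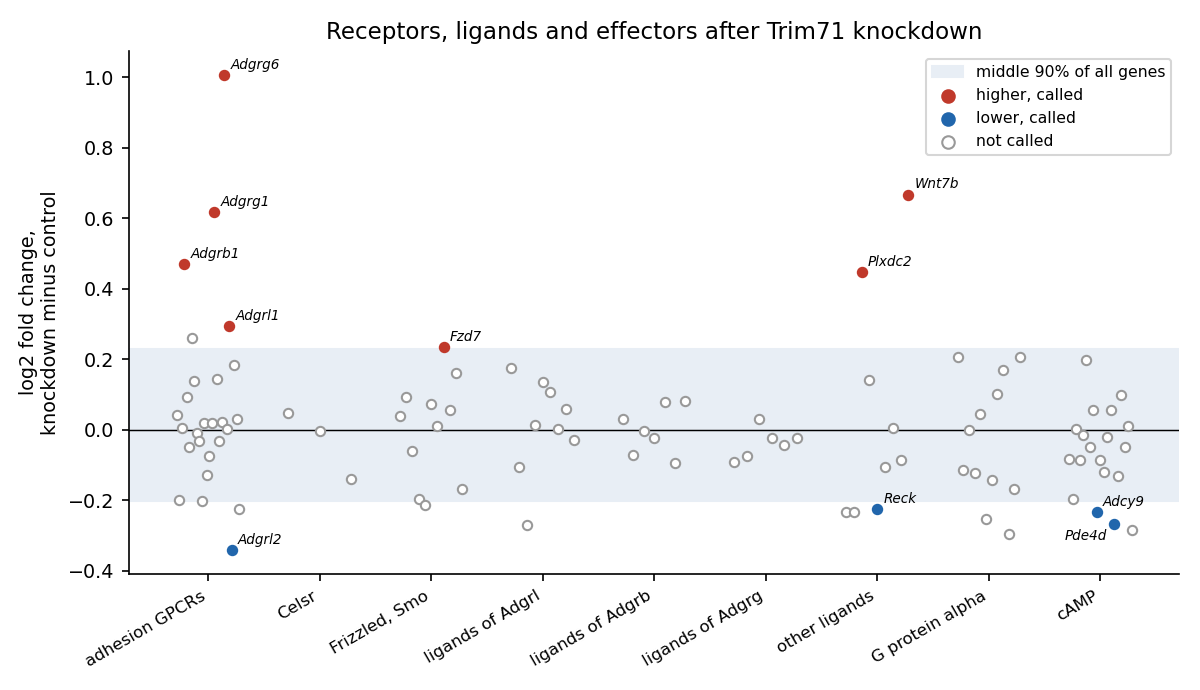
Log2 fold change, knockdown minus control, of adhesion GPCR genes, Celsr and Frizzled genes, reported ligands, G protein alpha subunit genes and cyclic AMP genes, with the called ones named; the band holds the middle 90% of all genes, from −0.20 to 0.23. Wnt7b and Plxdc2 are the ligand genes above the band, and none of the ligands of subfamilies B, G and L is called.

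Markers of other cell types stood beside these changes as follows. Of 8 fibroblast markers and 7 endothelial markers, 0 were called in limma, with 0 and 1 at an unadjusted p under 0.05. The mean signal of the fibroblast list was 5.42 to 5.61 on knockdown and 5.51 to 5.63 on control arrays, and that of the endothelial list 5.60 to 5.69 on knockdown and 5.62 to 5.67 on control arrays. Of 6 neural markers, Pax6 fell by 0.76 and Nes rose by 0.27, and 2 had an unadjusted p under 0.05 in limma. The list's mean was 6.89 to 6.94 on knockdown and 6.95 to 7.00 on control arrays. Of 6 trophectoderm markers Tfap2c rose by 0.53 and was the 1 called, and 3 had an unadjusted p under 0.05 in limma. These 3 were Tfap2c, Krt8, which was higher (0.21), and Eomes, which was lower (−0.30). Cdx2 (0.07) and Gata3 (0.03) were nearer to 0. The mean of that list was 8.29 to 8.44 on knockdown and 8.26 to 8.30 on control arrays. Of 6 endoderm markers 0 were called in limma, with 0 at an unadjusted p under 0.05. Over all genes, 5.53% were called and 19.0% had an unadjusted p under 0.05 in limma. The part of these markers in the receptor changes was not tested.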

How the data were processed

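The authors deposited log2 expression for each probe set on each array. They came from RMA and the affy package, per the submitters' processing notes, with versions not given in the sources used here. This step aims at a common distribution of the arrays, so a change shared by most genes cannot be read from the values. The arrays were still not fully level. Their medians were 6.27, 6.30 and 6.31 on knockdown arrays 1 to 3, against 6.26 on each control array. The upper quartile was 8.42 on knockdown array 3, against 8.32 to 8.35 on the others. No detection call came with the values, and the number of arrays limits precision.

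Genes were named from GEO's platform annotation, by the 21640 of 34760 probe sets with 1 symbol (1321 had several, 11799 none) and the brightest probe set a gene. Limma 3.58.1 in R 4.3.3 was fitted with group as the only term on 19937 genes, with Benjamini-Hochberg adjustment over all of them and no intensity filter, after a test on simulated data. Tables and plots used Python 3.11.15, pandas 2.3.3, scipy 1.17.1 and matplotlib 3.10.9.

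The members, lists and tests were chosen with earlier results of these data known. All members are accounted for. Every called member is given on all arrays, and of the others in each subfamily the brightest and the most changed are named. Of each partner list reported the called genes are named, or else the one with the largest statistic. Other list genes were picked after their values were seen. A further list is not reported here. Nothing says that replicates came from separate cultures, so p-values measure the spread between these arrays, which may be technical. The fit was repeated under 13 alternatives, with a block for replicate numbers, without each array, over the genes brighter than the median, with a trended and robust prior, on the mean of a gene's probe sets, after repeated quantile scaling or median centring, and over all probe sets.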

Additional observations from a re-analysis of the deposited data

How the results depend on the processing

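Adgrg6 and Adgrg1 kept their calls in limma under all 13 alternatives, with adjusted p-values up to 0.0174 and 0.0443, Adgrb1 under 11, Adgrl1 under 8 and Adgrl2 under 5. With the replicate number as a block, 171 genes were higher and 108 lower, and among adhesion GPCR genes 3 were higher and 0 lower. Adgrl1 (adjusted p = 0.0734) and Adgrl2 (0.0709) then lost their calls. Deviations of same-numbered arrays from their group means had correlations of -0.02, -0.15 and -0.24, against -0.23 to 0.28 for arrays of different number. Such deviations sum to 0 within each group of 3, so these values cannot settle whether the numbers pair the arrays. With each array left out, 148 to 603 genes were higher and 101 to 699 lower, and 2 to 4 adhesion GPCR genes were higher and 0 to 1 lower. Over the genes brighter than the median 1124 were higher and 766 lower. The trended and robust prior gave 1213 and 854, with 2 lower adhesion GPCR genes, Adgre5 being added at an adjusted p of 0.0281. Repeated quantile scaling gave 779 higher and 763 lower genes, and median centring gave 527 higher and 616 lower, beside 675 and 428 in the main fit. Each of these scalings gave 2 lower adhesion GPCR genes, Adgra2 being added. All probe sets gave 266 higher and 134 lower, and there, as with the mean of a gene's probe sets, 0 adhesion GPCR genes were lower. The cause of these shifts was not tested. Of the members near 0, the log2 fold change under median centring was -0.025 for Adgra3, -0.010 for Adgrf1, -0.012 for Adgrf5, -0.0078 for Adgrg4 and -0.028 for Adgrg7. Under repeated quantile scaling it was -0.0066 for Adgra3, -0.0053 for Adgrf5 and -0.021 for Adgrg7. With an array left out, the sign also turned within -0.041 to 0.16 for Adgra1, -0.016 to 0.020 for Adgra3, -0.13 to 0.00092 for Adgrb3, -0.054 to 0.074 for Adgre1, -0.078 to 0.019 for Adgre4, -0.047 to 0.073 for Adgrf1, -0.22 to 0.0025 for Adgrf2, -0.18 to 0.023 for Adgrf4, -0.0039 to 0.033 for Adgrf5, -0.095 to 0.083 for Adgrg3, -0.022 to 0.068 for Adgrg4, -0.089 to 0.13 for Adgrg7 and -0.018 to 0.069 for Adgrl4. None of these 13 genes was called. The ligand genes Plxdc2 and Wnt7b kept the call with each array left out. With the block Plxdc2 kept it (adjusted p = 0.0349) while Wnt7b (0.0663), Reck (0.129), Adcy9 (0.139), Pde4d (0.0987) and Fzd7 (0.129) lost it.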
